A study of Mus musculus with 35 samples.

Results

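Genes that handle iron and haem were followed through RNA sequencing of mouse aorta. The 8 members were chosen by symbol for their known roles, after earlier results of these data had been seen: Hmox1, Blvrb, Slc40a1, Slc11a1, Fth1, Ftl1, Tfrc and Cp. Counts of members beside the share of all genes are therefore a description. All 8 were among the 14174 genes of the deposited table, and all 8 passed the filter on low values that left 14157 genes for testing. The 35 libraries formed 12 groups of C57BL/6 mice. Wild-type mice (WT) were set beside apolipoprotein E knockouts (EKO) and beside knockouts that also overexpress human apoA-I (EKO/hA-I). Without apolipoprotein E, remnant particles stay in the plasma, and apoA-I is the main protein of high-density lipoprotein. The EKO/hA-I mice therefore carry the same deletion as their EKO controls, and the promoter that drives the human transgene is not given in the sources used here. Mice started at 8 weeks of age on chow or a Western diet (WD) and were killed after 6 or 22 weeks, at 14 or 30 weeks of age. The smallest group had 2 libraries (EKO/hA-I on 6 weeks of chow) and the other 11 had 3. Blood was washed out with saline before the aorta was taken from root to iliac bifurcation, and fat around the vessel was removed.

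Haem released from dying red cells is opened by haem oxygenase 1, encoded by Hmox1, and the biliverdin that results is reduced to bilirubin. Blvrb encodes biliverdin reductase B, and whether it acts on the biliverdin made by Hmox1 was not tested here. The freed iron is stored in ferritin, a shell of heavy (Fth1) and light (Ftl1) chains, or leaves the cell through ferroportin (Slc40a1), after which the copper enzyme ceruloplasmin (Cp) oxidises it for loading onto transferrin. Cells take transferrin iron in through the transferrin receptor (Tfrc), and macrophages pump metal out of the phagosome with Slc11a1, also known as NRAMP1. In lesions of the artery wall, macrophages that engulf cells and red cell debris are the cells best known for this traffic.

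Ferritin, ferroportin and transferrin receptor messages are known to be controlled after transcription by iron-responsive elements, short hairpins bound by iron regulatory proteins. A hairpin in the 5′ UTR lets those proteins block translation, and hairpins in the 3′ UTR protect the message from decay, so a level of RNA is not a level of protein for these genes. The elements are shown because they divide the members by how their RNA is handled. The search asked for a bulged C, 5 paired bases, the loop CAGTGN and the 5 pairing bases, on the sense strand of 1 principal GENCODE M21 transcript per gene (GRCm38). It found a match in 4 of the 8 members, against 1.2% of 21870 genes searched. Within a 5′ UTR 0.096% of genes held a match, and within a 3′ UTR 0.508%. The loop stands in capitals in each run of 27 bases, written 5′ to 3′:
Fth1 5′ UTR: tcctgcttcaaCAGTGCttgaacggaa
Ftl1 5′ UTR: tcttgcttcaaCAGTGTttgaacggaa
Slc40a1 5′ UTR: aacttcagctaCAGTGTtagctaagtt
Tfrc 3′ UTR, element 1: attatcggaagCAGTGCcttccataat
Tfrc 3′ UTR, element 2: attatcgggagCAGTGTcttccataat
Tfrc 3′ UTR, element 3: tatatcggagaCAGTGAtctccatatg
Tfrc 3′ UTR, element 4: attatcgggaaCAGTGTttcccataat
The ferritin chains and ferroportin each held 1 element before the coding region, and Tfrc held 4 after it. Hmox1, Blvrb, Slc11a1 and Cp held no match in the transcript searched. Promoter windows of 300 bases from RefSeq (GRCm38) were found for 6 of the 8 members, all but Hmox1 and Slc40a1. None of the 6 held the antioxidant response core TGACNNNGC or the E-box CACGTG on either strand, motifs present in 12.4% and 7.15% of 32851 windows. Sites outside these 300 bases were not searched, so the genes cannot be said to lack either motif.

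Values below are normalised signal, brought by the authors to similar totals per library, with no stated division by gene length, so levels are compared between samples and not between genes. Between 6860000 and 25340000 reads stood behind a library, estimated from the value of a single read. The labels do not say that the libraries of a group came from separate animals. Y-linked genes summed to 0.1787 to 5.321 in 12 libraries and to 152.8 to 346.9 in the other 23, and 11 of the 12 groups held libraries of both kinds, so those groups held more than 1 animal. Whether libraries alike in Y-linked signal came from different animals is not given, and p-values measure the spread between libraries. A Y-linked term in the fit ended none of the members' calls. Apoe, the deleted gene, was at 540.4 to 804.1 in WT on WD for 22 weeks and at 21.16 to 29.68 in EKO. The lowest of those WT values belonged to the library whose genotype tag named EKO and whose title named WT, and it was kept as WT. A difference is a log2 fold change of value plus 1 with its SE, from 1 limma fit of all 12 groups. A gene is said to have risen or fallen where its Benjamini-Hochberg adjusted p over all genes tested was under 0.05.

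**Figure D1:**
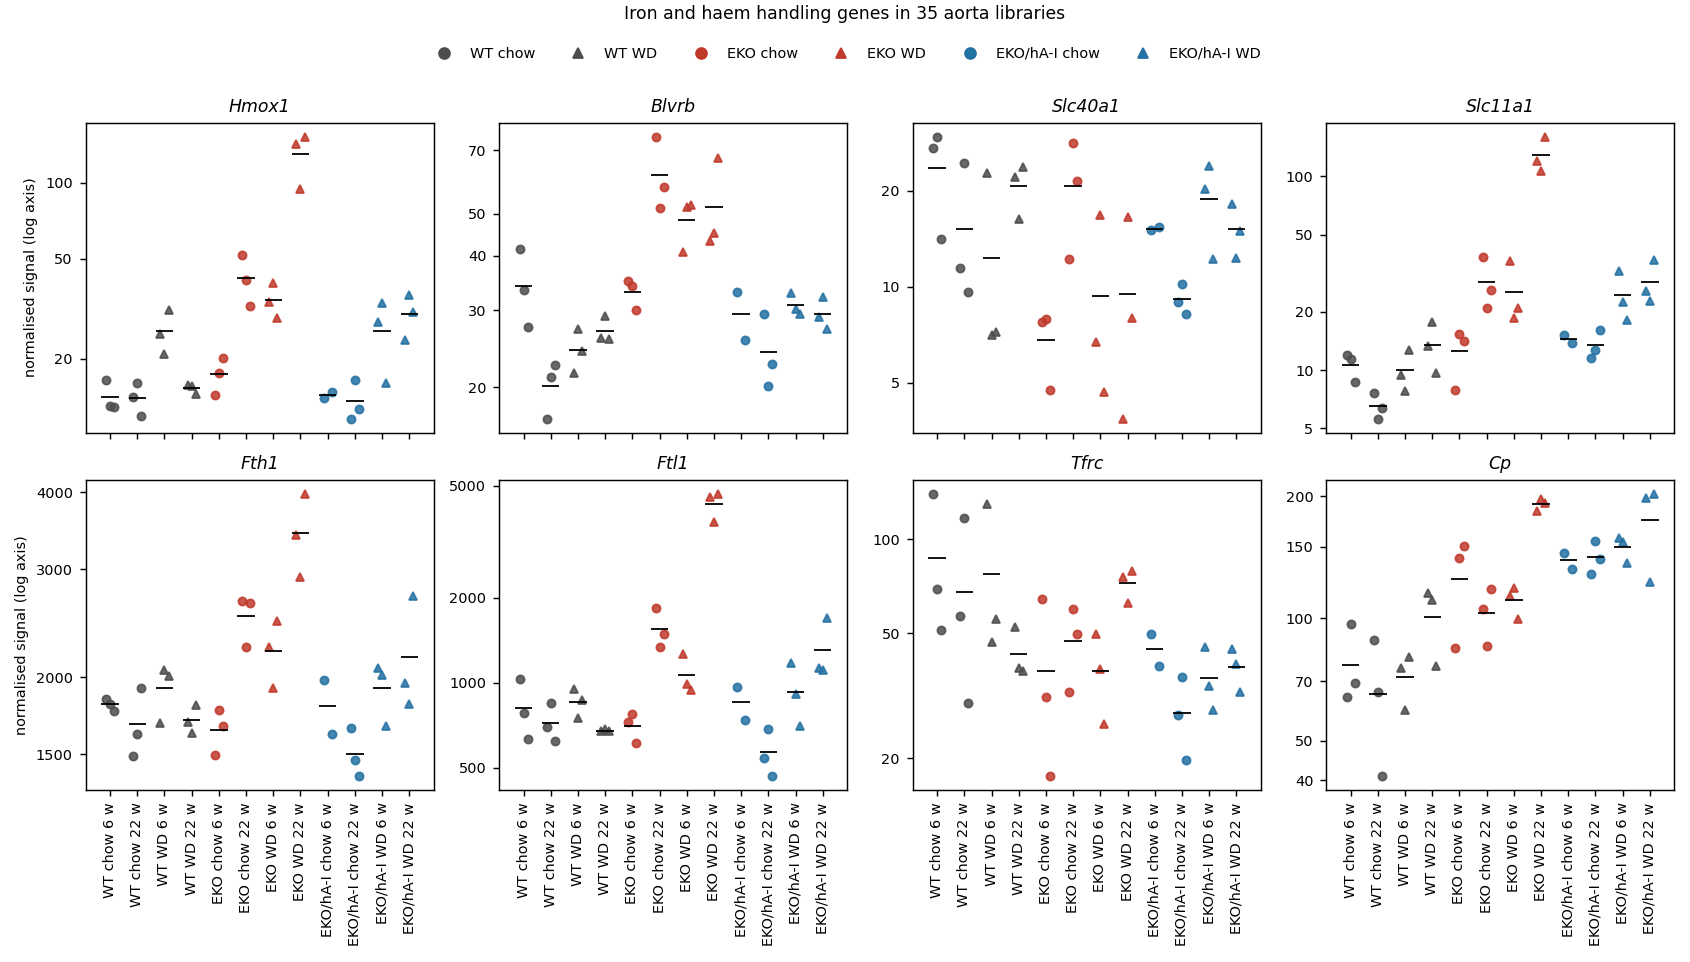
Normalised signal (log axes, 1 panel per gene) in every library of the 12 groups; points are libraries, colours genotypes, circles chow, triangles WD, and bars group means. In Hmox1, Slc11a1, Fth1 and Ftl1 the 3 EKO libraries on WD for 22 weeks lie above the other 32.

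Loss of apolipoprotein E on WD for 22 weeks raised 6 of the 8 members and lowered none, where 22.0% of all genes tested passed. Haem oxygenase 1, the phagosomal metal pump Slc11a1 and the ferritin light chain rose most, between 6.34-fold and 9.01-fold, while the ferritin heavy chain, Blvrb and Cp rose about as far as each other, between 1.86-fold and 2-fold. The importer Tfrc and the exporter Slc40a1 did not pass. The members' median log2 difference was 0.97, against -0.01 over all genes tested.

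Hmox1 read 142, 94.65 and 151.9 in the EKO libraries on WD for 22 weeks and 15.72, 15.6 and 14.55 in the WT libraries. The lowest EKO library was far above the highest WT library, and above every other library of the series, none of which exceeded 51.64. The log2 difference was 2.97 ± 0.22 (7.85-fold, adjusted p = 4.6e-10). Blvrb read 43.24, 45.21 and 67.17 in EKO and 26, 29.07 and 25.85 in WT. The groups did not overlap, yet all 3 EKO values lay within the range of EKO on chow for 22 weeks or below it. Its log2 difference was 0.89 ± 0.17 (1.86-fold, adjusted p = 0.00032). Slc11a1 read 119.8, 106 and 159.7 in EKO and 13.27, 17.76 and 9.601 in WT. No other library of the series exceeded 38.41 for this pump, which strips divalent metal from phagosomes. The log2 difference was 3.17 ± 0.28 (9.01-fold, adjusted p = 3.7e-09).

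Both ferritin chains were highest in the same 3 libraries. Fth1, the chain with the ferroxidase site, read 3410, 2913 and 3981 in EKO and 1689, 1621 and 1804 in WT, and its log2 difference was 1.00 ± 0.17 (adjusted p = 7.4e-05). Ftl1, the chain that favours mineral growth inside the shell, read 4554, 3718 and 4680 in EKO and 672.7, 684.1 and 673.9 in WT. The WT libraries were nearly alike, and the lowest EKO library was above the 1838 reached anywhere else. The log2 difference was 2.66 ± 0.22 (6.34-fold, adjusted p = 1.1e-09). Ferritin genes have near-identical processed copies in the genome, and how reads shared with them were assigned is not given in the sources used here.

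The light chain therefore moved further than the heavy chain, and the ratio of Ftl1 to Fth1 signal within a library shows it. The ratio ran from 1.18 to 1.34 in EKO on WD for 22 weeks and from 0.373 to 0.422 in WT, a log2 difference of 1.67. It did not exceed 0.69 in any of the other 32 libraries. With 3 libraries against 3 the exact permutation test (two-sided) cannot go below p = 0.1, and it gave p = 0.1. EKO on chow for 22 weeks came next at 0.562 to 0.69, with a log2 difference from WT on chow of 0.52 (exact permutation p = 0.1). EKO/hA-I on WD for 22 weeks was at 0.578 to 0.626, between EKO and WT on the same diet. At 6 weeks the ratio stayed within 0.357 to 0.568 in all 6 groups. Because the values carry no gene length, only the change of the ratio between libraries can be read, not its size.

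**Figure D2:**
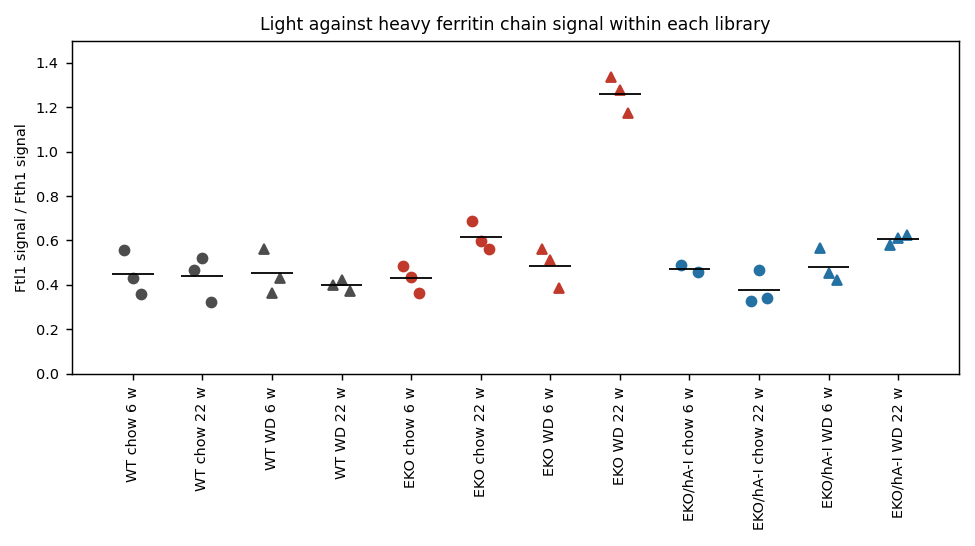
Ftl1 signal divided by Fth1 signal (vertical axis, no unit) in every library of the 12 groups (horizontal axis), with group means as bars, circles for chow and triangles for WD. The 3 EKO libraries on WD for 22 weeks lie at 1.18 to 1.34 and no other library passes 0.69.

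Cp read 184.2, 197 and 191.9 in EKO on WD for 22 weeks and 115.6, 111.1 and 76.47 in WT. The groups did not overlap, and the log2 difference was 0.93 ± 0.24 (adjusted p = 0.0046). The liver makes the plasma form of ceruloplasmin, and 5 measured hepatocyte markers summed to 6.602 to 9.119 in EKO and 5.449 to 10.74 in WT, with 2 and 1 of them at 0 in at least 1 library. Slc40a1 read 3.865, 16.56 and 7.962 in EKO and 22.01, 16.26 and 23.79 in WT. The highest EKO library reached into the WT range, and the log2 difference of -1.23 ± 0.46 did not pass (adjusted p = 0.056). Without that library, EKO replicate 2, it was -1.70 and passed (adjusted p = 0.013). Tfrc read 75.54, 62.42 and 79.24 in EKO and 52.27, 38.89 and 37.91 in WT. Those libraries did not overlap, but across the series Tfrc varied so much within groups that the log2 difference of 0.75 ± 0.44 did not pass (adjusted p = 0.25). Fitted on these 6 libraries alone the same difference passed (adjusted p = 0.016).

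Macrophage markers moved with these rises. Of 14 measured macrophage markers 13 rose in EKO over WT on this diet and none fell, and their summed signal was 7518 to 10810 in EKO and 438.4 to 914.3 in WT, with none at 0. Of 10 markers of foamy macrophages 9 rose, with sums of 14850 to 25490 against 446.1 to 937, while 1 of 7 markers of resident adventitial macrophages rose. Cd68 stood at 345.4 to 586.2 in EKO and at 24.06 at most in WT. Smooth muscle markers summed to 6135 to 10610 in EKO and 16540 to 27110 in WT. In bulk tissue fewer cells of a type and less RNA per cell cannot be told apart, and the part of cell numbers in the rise of Hmox1, Slc11a1 and the ferritins was not tested. Markers of red cell precursors did not follow: 0 of 5 measured markers passed in limma, 0 were under an unadjusted p of 0.05, and their sums overlapped at 199.6 to 306 in EKO and 142.9 to 401.2 in WT. Only these 5 of the 15 listed erythroid markers were measured. Alas2, an enzyme of haem synthesis, gave most of their sum in every library of the series. It read 185.2 to 287.8 in EKO here and 131.2 to 368.1 in WT.

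**Figure D3:**
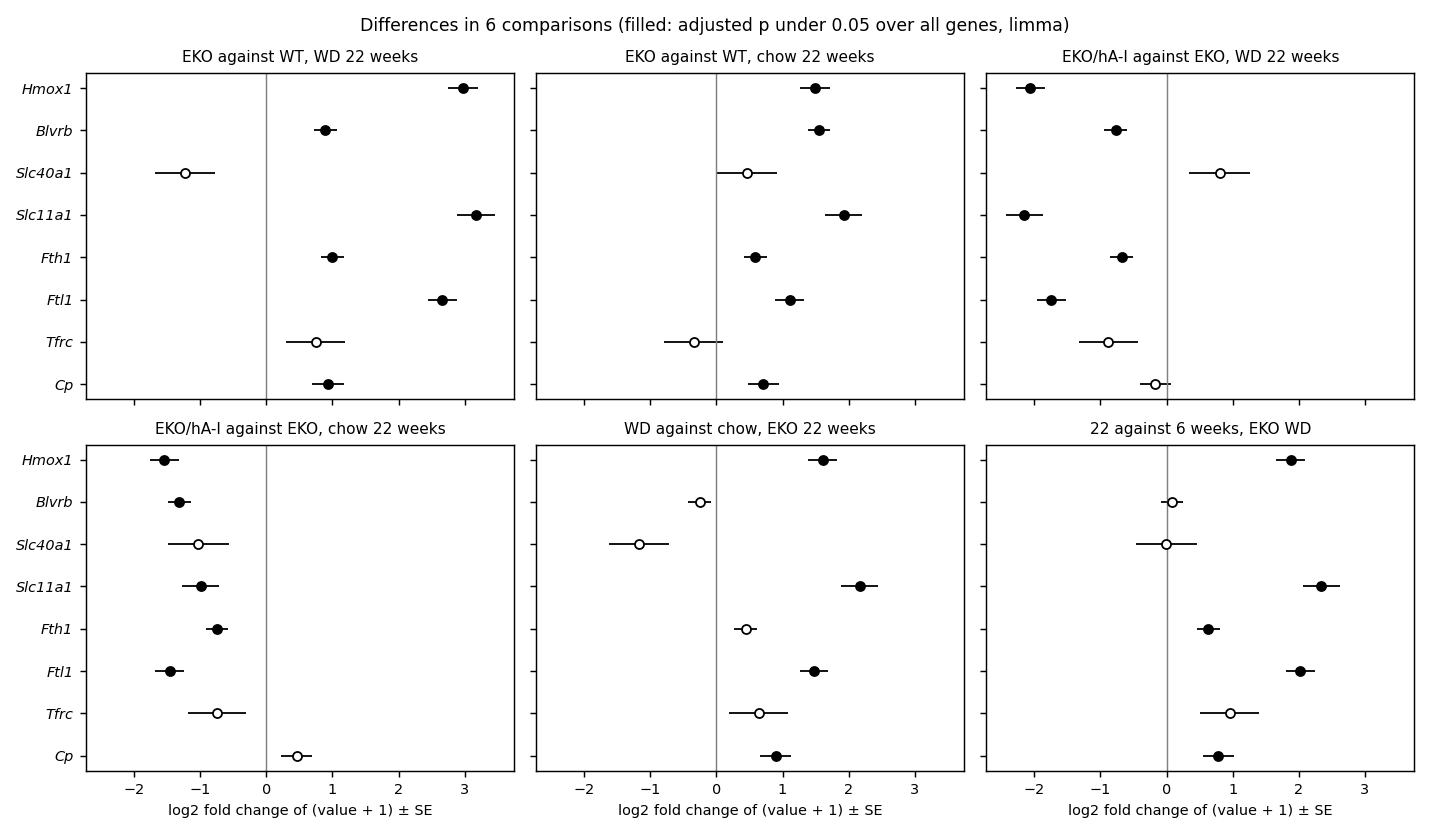
Log2 fold change of value plus 1 (horizontal axis) with its SE for the 8 members in 6 comparisons; filled points passed an adjusted p of 0.05 over all genes in limma. In EKO against WT 6 points are filled to the right of 0 on each diet, and in EKO/hA-I against EKO 5 are filled to the left on each diet.

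On chow for 22 weeks the same 6 members were higher in EKO than in WT, where 15.3% of all genes passed. Here the order differed: Slc11a1 and Blvrb led, and Ftl1 rose less than on WD. Blvrb read 75.09, 51.56 and 57.61 in EKO and 16.95, 21.12 and 22.46 in WT. These were the highest group mean of Blvrb in the series and the lowest, and the log2 difference was 1.55 ± 0.17 (2.93-fold, adjusted p = 8.6e-06). Hmox1 read 51.64, 41.16 and 32.45 against 14.14, 16.03 and 11.87, a log2 difference of 1.49 ± 0.22 (adjusted p = 0.00011). Slc11a1 read 38.41, 20.77 and 25.8 against 7.585, 5.623 and 6.358, a log2 difference of 1.93 ± 0.28 (adjusted p = 0.00011). No EKO library overlapped with WT in either gene. Ftl1 read 1838, 1340 and 1487 against 697.5, 844.6 and 620.9, and rose by 1.11 ± 0.22 on the log2 scale (adjusted p = 0.0013). Fth1 rose by 0.59 ± 0.17 (adjusted p = 0.021) and Cp by 0.71 ± 0.24 (adjusted p = 0.042), with overlap between the groups in Cp.

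None of these 6 calls held when only the 6 libraries compared were fitted, where adjusted p ran from 0.053 for Blvrb to 0.37 for Fth1. In that fit 11 of all genes tested passed, against 2165 in the full fit, so the loss was not particular to the members. Fth1 lost its call without WT replicate 1, EKO replicate 1 or EKO replicate 3 (log2 0.51 to 0.55, adjusted p = 0.066 to 0.1), and Cp without WT replicate 2 or 3 or EKO replicate 1 or 3 (log2 0.42 to 0.75, adjusted p = 0.052 to 0.25). Macrophage markers were higher here too, 14 of 14 measured, with sums of 1474 to 2574 in EKO and 198.6 to 457.4 in WT. So were 3 of 5 erythroid markers, at sums of 268.9 to 489.8 against 48.95 to 80.29. With a term for the erythroid markers in the fit, Hmox1, Blvrb, Slc11a1 and Ftl1 still passed, and Fth1 (adjusted p = 0.075) and Cp (adjusted p = 0.085) did not. Over all genes tested 2111 passed with that term, against 2165 without it. The erythroid sums did not overlap between these groups, so the term and the genotype can hardly be told apart here.

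Diet was then compared within a genotype. In EKO at 22 weeks WD raised 4 of 8 members over chow, where 18.7% of all genes passed. Slc11a1 rose by 2.17 ± 0.28 on the log2 scale (4.49-fold, adjusted p = 4.3e-06), Hmox1 by 1.61 ± 0.22 (3.04-fold, adjusted p = 1.1e-05) and Ftl1 by 1.48 ± 0.22 (2.79-fold, adjusted p = 1.7e-05). Cp rose by 0.89 ± 0.24 (adjusted p = 0.0086), from 85.76 to 118.1 on chow to 184.2 to 197 on WD, with no overlap. Blvrb went its own way. It was already at its highest on chow, and WD changed it by -0.25 ± 0.17 (adjusted p = 0.33). Fth1 differed by 0.44 ± 0.17 (adjusted p = 0.073), and passed without EKO replicate 2 on WD (0.56, adjusted p = 0.04). Slc40a1 differed by -1.17 ± 0.46 (adjusted p = 0.076), and passed without EKO replicate 1 on chow (-1.49, adjusted p = 0.047) or EKO replicate 2 on WD (-1.64, adjusted p = 0.018). Of 14 macrophage markers 13 rose in this comparison.

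In WT at 22 weeks no member passed between the diets, where 1.36% of genes passed in limma. At an unadjusted p of 0.05 the count was 3, and 1 member passed when WT replicate 3 on WD was left out. Hmox1 read 14.55 to 15.72 on WD and 11.87 to 16.03 on chow, and Ftl1 672.7 to 684.1 and 620.9 to 844.6, so that both overlapped in WT. The ranges did not overlap for Blvrb, at 25.85 to 29.07 on WD and 16.95 to 22.46 on chow, or for Slc11a1. The log2 difference of Blvrb was 0.41 ± 0.17 (adjusted p = 0.23). Slc11a1 had the largest difference in WT, 0.92 ± 0.28 (adjusted p = 0.094). The difference between genotypes in the response to diet was tested as an interaction, which 6.21% of genes passed. It was positive for 2 members, Hmox1 at 1.48 ± 0.32 (adjusted p = 0.0051) and Ftl1 at 1.56 ± 0.30 (adjusted p = 0.0023). Slc11a1 did not pass it (1.25 ± 0.40, adjusted p = 0.061), nor did Fth1 (0.41 ± 0.24, adjusted p = 0.35). Leaving out EKO replicate 2 on WD gave 4 members, and leaving out WT replicate 2 on WD, EKO replicate 1 on chow or EKO replicate 3 on WD gave 3.

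In EKO/hA-I at 22 weeks 4 members were higher on WD than on chow, where 38.2% of genes passed. Ftl1 was at 1107 to 1698 on WD and 468.9 to 687.2 on chow, a log2 difference of 1.20 ± 0.22 (adjusted p = 0.00053). Hmox1 differed by 1.09 ± 0.22 (adjusted p = 0.0013), Slc11a1 by 1.01 ± 0.28 (adjusted p = 0.0074) and Fth1 by 0.51 ± 0.17 (adjusted p = 0.022). Fth1 lost its call without chow replicate 2 (0.49, adjusted p = 0.054), chow replicate 3 (0.45, adjusted p = 0.087) or WD replicate 3 (0.33, adjusted p = 0.15). Of 14 macrophage markers 10 rose. The tissue in these 2 groups also differed: 12 brown adipocyte markers summed to 7424 to 9298 on WD and 1974 to 2433 on chow, and 13 skeletal muscle markers to 1221 to 4205 and 15.69 to 55.79. With a term for brown fat in the fit none of the 4 passed (adjusted p = 0.16 to 0.23), though the log2 differences stayed between 0.60 and 1.33. With that term 2 of all genes tested passed, against 5409 without it, so the loss was not particular to the members. The brown adipocyte sums did not overlap between these groups, so the term and the diet can hardly be told apart here.

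At 6 weeks diet moved no member past the threshold in any genotype. The shares of all genes that passed in limma were 0.0848% in EKO, 0.00706% in EKO/hA-I and 1.43% in WT, and 5, 2 and 3 members were under an unadjusted p of 0.05. Hmox1 came closest, at 33.54, 39.84 and 28.96 on WD and 14.36, 17.65 and 20.22 on chow in EKO. The groups did not overlap, and the log2 difference was 0.93 ± 0.22 (adjusted p = 0.057). In WT the difference was of like size, 0.82 ± 0.22 (adjusted p = 0.061), from 12.93 to 16.44 on chow to 21 to 31.3 on WD.

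Human apoA-I in EKO mice on WD for 22 weeks lowered 5 of the 8 members and raised none, where 18.8% of genes passed. Hmox1 read 23.68, 35.91 and 30.8 in EKO/hA-I, against 94.65 to 151.9 in EKO. It fell by 2.06 ± 0.22 on the log2 scale (4.16-fold lower, adjusted p = 3.2e-07). Slc11a1 read 25.44, 22.6 and 37.09, and fell by 2.15 ± 0.28 (4.44-fold lower, adjusted p = 3.5e-06). Ftl1 read 1131, 1107 and 1698, and fell by 1.74 ± 0.22 (3.34-fold lower, adjusted p = 1.5e-06). In all 3 genes every EKO/hA-I library lay below every EKO library. Blvrb read 28.97, 32.23 and 27.18 and fell by 0.77 ± 0.17 (adjusted p = 0.0023). Fth1 read 1956, 1813 and 2712 and fell by 0.68 ± 0.17 (adjusted p = 0.0063), a call lost with brown fat and skeletal muscle terms (adjusted p = 0.12) and when the 6 libraries were fitted alone (adjusted p = 0.13).

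Cp did not follow the other 5. It read 197.4, 122.7 and 202.7 in EKO/hA-I on WD for 22 weeks, overlapping with EKO, and its log2 difference was -0.17 ± 0.24 (adjusted p = 0.68). Tfrc was at 32.44 to 44.63 against 62.42 to 79.24 and differed by -0.88 ± 0.44 (adjusted p = 0.17). It passed with the brown fat term (-1.51, adjusted p = 0.042) and in the 6 libraries alone (adjusted p = 0.015). Slc40a1 differed by 0.80 ± 0.46 (adjusted p = 0.23). Of 14 macrophage markers 12 fell, with sums of 1221 to 2660 in EKO/hA-I, and all 10 foamy macrophage markers fell. Skeletal muscle markers summed to 1221 to 4205 with human apoA-I and 29.42 to 173.3 without. Brown adipocyte sums were 7424 to 9298 with human apoA-I and 1658 to 6282 without. With brown fat and skeletal muscle terms in the fit Hmox1, Slc11a1, Ftl1 and Blvrb still passed. Over all genes tested 1174 passed with these terms, against 2668 without. Neither of these sums overlapped between the groups, so the terms and the genotype can hardly be told apart here.

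The EKO/hA-I mice did not reach the WT level on WD at 22 weeks in every gene. Against WT 4 members were higher, where 18.0% of genes passed: Hmox1 by 0.92 ± 0.22 (adjusted p = 0.0085), Ftl1 by 0.92 ± 0.22 (adjusted p = 0.0063), Slc11a1 by 1.02 ± 0.28 (adjusted p = 0.016) and Cp by 0.77 ± 0.24 (adjusted p = 0.027). Every Hmox1 and Ftl1 library of EKO/hA-I lay above every WT library. Blvrb was near WT, at 0.12 ± 0.17 (adjusted p = 0.65). These calls were less stable: without WT replicate 3 or without EKO/hA-I replicate 3 only 2 passed, with an erythroid term only 1, and Hmox1 was lost without EKO/hA-I replicate 2 (0.78, adjusted p = 0.058). Slc11a1 was at 0.81 (adjusted p = 0.088) without WT replicate 3 and 0.82 (adjusted p = 0.07) without EKO/hA-I replicate 3, and Cp was lost without WT replicate 2 or 3 or EKO/hA-I replicate 1 or 3 (0.58 to 0.85, adjusted p = 0.053 to 0.14). With a brown fat term Hmox1 (0.82, adjusted p = 0.05) and Cp (0.74, adjusted p = 0.092) did not pass, and with brown fat and skeletal muscle terms Ftl1 did not either (0.89, adjusted p = 0.06). Of all genes tested 477 passed with the erythroid term, 854 with brown fat and 418 with brown fat and skeletal muscle, against 2544 without a term. Skeletal muscle sums were 39.85 to 620.6 in WT against 1221 to 4205, brown adipocyte sums 3693 to 6216 against 7424 to 9298, and macrophage sums 438.4 to 914.3 against 1221 to 2660, with 11 of 14 macrophage markers higher in EKO/hA-I. This comparison and the 2 before it share libraries, and their values are given side by side only.

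On chow for 22 weeks human apoA-I also went with lower values of 5 members, where 28.6% of genes passed. Hmox1 read 11.62, 16.54 and 12.67 in EKO/hA-I and fell by 1.54 ± 0.22 from EKO (adjusted p = 0.00014). Ftl1 read 542, 687.2 and 468.9 and fell by 1.46 ± 0.22 (adjusted p = 0.00015). Blvrb read 29.44, 20.08 and 22.66 and fell by 1.32 ± 0.17 (adjusted p = 5.4e-05). All 3 groups of values lay below every EKO library on chow and reached into the range of WT on chow. Slc11a1 fell by 0.99 ± 0.28 (adjusted p = 0.011), and without EKO replicate 1 this was -0.76 (adjusted p = 0.077). Fth1 fell by 0.75 ± 0.17 (adjusted p = 0.0032), to the lowest group mean of the series. Brown adipocyte markers were lower in EKO/hA-I (8 of 12 fell, sums 1974 to 2433 against 4819 to 9187) and 9 of 14 macrophage markers fell. Of 5 erythroid markers 3 fell and 1 rose, with sums of 56.94 to 116.5 against 268.9 to 489.8, and smooth muscle sums were 23260 to 35230 against 11500 to 15890. All 5 members still passed with a brown fat term and with an erythroid term. Over all genes tested 1034 passed with the brown fat term and 3639 with the erythroid term, against 4046 without a term. Neither the brown adipocyte nor the erythroid sums overlapped between these groups, so either term and the genotype can hardly be told apart here.

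At 6 weeks no member passed between EKO/hA-I and EKO on either diet, where 0.0706% of genes on WD and 0.0777% on chow passed in limma. At an unadjusted p of 0.05 the counts were 2 on WD and 1 on chow. Blvrb on WD read 32.92, 30.28 and 29.46 in EKO/hA-I and 40.75, 51.67 and 52.37 in EKO. The groups did not overlap, and the log2 difference of -0.62 ± 0.17 did not pass over all genes (adjusted p = 0.42).

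Loss of apolipoprotein E after only 6 weeks showed in fewer members. On WD 2 were higher in EKO than in WT, where 5.44% of genes passed. Blvrb was at 40.75 to 52.37 in EKO and 21.54, 27.14 and 24.2 in WT, a log2 difference of 0.96 ± 0.17 (adjusted p = 0.0038). Slc11a1 read 36.61, 18.52 and 20.78 against 9.448, 7.764 and 12.73, a difference of 1.22 ± 0.28 (adjusted p = 0.012). Slc11a1 lost its call without WT replicate 1 (1.20, adjusted p = 0.076), WT replicate 2 (1.07, adjusted p = 0.061) or EKO replicate 1 (0.93, adjusted p = 0.13). With a brown fat term it was 1.08 (adjusted p = 0.053), where brown adipocyte sums were 3896 to 10060 in EKO and 8319 to 16640 in WT. Neither gene passed when the 6 libraries were fitted alone, at adjusted p = 0.062 for Blvrb and 0.1 for Slc11a1. Of all genes tested 9 passed in those libraries alone and 276 with the brown fat term, against 770 in the full fit. Hmox1 (0.40 ± 0.22, adjusted p = 0.29) and Ftl1 (0.31 ± 0.22, adjusted p = 0.4) did not pass. Blvrb thus stood near its 22-week level in EKO at a time when Hmox1 and Ftl1 overlapped with WT. Of the markers 7 of 14 for macrophages rose (sums 1143 to 1797 against 325.9 to 699.1), 7 of 10 for foamy macrophages (997.2 to 2840 against 278.9 to 907.4) and 8 of 8 for adventitial fibroblasts (6849 to 10070 against 2760 to 3994), and their part was not tested.

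On chow for 6 weeks 1 member passed, where 4.97% of genes did. Ferroportin, Slc40a1, read 7.744, 7.898 and 4.741 in EKO and 27.14, 29.5 and 14.12 in WT, and fell by 1.62 ± 0.46 on the log2 scale (adjusted p = 0.041). The groups did not overlap. The 12 brown adipocyte markers also differed there, at 1738 to 2500 in EKO and 2864 to 7180 in WT. With a brown fat term the difference in Slc40a1 was -0.72 (adjusted p = 0.2), and 87 of all genes tested passed, against 704 without the term. Leaving out WT replicate 3 gave 2 members, and leaving out EKO replicate 1 gave 3. The call of Slc40a1 was lost without WT replicate 1 (-1.49, adjusted p = 0.23), WT replicate 2 (-1.43, adjusted p = 0.15), EKO replicate 2 (-1.73, adjusted p = 0.076) or EKO replicate 3 (-1.41, adjusted p = 0.23).

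Time on the diet was compared next. In EKO on WD 5 members rose from 6 to 22 weeks, where 13.4% of genes passed. Slc11a1 rose by 2.34 ± 0.28 (5.06-fold, adjusted p = 1.4e-06), Ftl1 by 2.02 ± 0.22 (4.07-fold, adjusted p = 2.8e-07) and Hmox1 by 1.88 ± 0.22 (3.67-fold, adjusted p = 1.4e-06). Ftl1 went from 1260, 986 and 945.9 at 6 weeks to 3718 and above. Fth1 rose by 0.63 ± 0.17 (adjusted p = 0.012) and Cp by 0.78 ± 0.24 (adjusted p = 0.025), while Blvrb (0.08 ± 0.17, adjusted p = 0.82) and Slc40a1 (-0.0039 ± 0.46, adjusted p = 1) did not pass. Tfrc (0.96 ± 0.44, adjusted p = 0.17) passed with the brown fat term (1.28, adjusted p = 0.031) and in the 6 libraries alone (adjusted p = 0.038). Fth1 lost its call in the 6 libraries alone (adjusted p = 0.2). It was also lost without the 6-week replicate 2 (0.54, adjusted p = 0.067) or the 22-week replicate 3 (0.52, adjusted p = 0.085). Cp lost its call without the 6-week replicate 3 or any of the 22-week libraries (0.71 to 0.81, adjusted p = 0.058 to 0.11). All 14 macrophage markers rose here, from sums of 1143 to 1797 at 6 weeks. Left-out libraries moved the count of members to 3 at the lowest, without the 22-week replicate 3.

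In EKO on chow 6 members rose over the same span, where 27.0% of genes passed: Hmox1 (1.20 ± 0.22, adjusted p = 0.00097), Ftl1 (1.14 ± 0.22, adjusted p = 0.001), Blvrb (0.86 ± 0.17, adjusted p = 0.0015), Slc11a1 (1.13 ± 0.28, adjusted p = 0.0058), Fth1 (0.61 ± 0.17, adjusted p = 0.011) and Slc40a1 (1.43 ± 0.46, adjusted p = 0.024). Brown adipocyte markers went the same way (8 of 12 rose), from sums of 1738 to 2500 to 4819 to 9187. Macrophage sums went from 558.8 to 880.8 to 1474 to 2574, with 7 of 14 markers rising, and foamy macrophage sums from 615.9 to 746.4 to 1739 to 2018, with 8 of 10 rising and 1 falling. Erythroid sums were also higher at 22 weeks, 268.9 to 489.8 against 96.43 to 151.6, though of 5 markers the 1 that passed fell. Smooth muscle sums were lower, 11500 to 15890 against 26650 to 33470, with 3 of 9 falling. The part of these tissues in the members' rise was not tested beyond the terms named here. With a brown fat term the difference in Slc40a1 was 0.15 (adjusted p = 0.81), and the other 5 still passed. Over all genes tested 1271 passed with that term, against 3829 without it. The brown adipocyte sums did not overlap between these groups, so the term and the duration can hardly be told apart here. Slc40a1 also lost its call without the 6-week replicate 3 (1.22, adjusted p = 0.12), the 22-week replicate 2 (1.17, adjusted p = 0.088) or the 22-week replicate 3 (1.36, adjusted p = 0.073). Fth1 lost its call when only the compared groups were fitted (adjusted p = 0.062).

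In the other 4 groups no member passed between 6 and 22 weeks in limma. The shares of all genes that passed were 0.0706% in EKO/hA-I on WD, 0.00706% in EKO/hA-I on chow, 6.68% in WT on WD and 0.120% in WT on chow, and 1, 1, 1 and 2 members were under an unadjusted p of 0.05. Ftl1 in EKO/hA-I on WD read 1177, 911.8 and 702 at 6 weeks and 1107 to 1698 at 22 weeks, overlapping, with a log2 difference of 0.50 ± 0.22 (adjusted p = 0.21). Hmox1 in WT on WD was the lower at 22 weeks, by -0.70 ± 0.22 (adjusted p = 0.057).

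Whether the effect of a genotype changed with time on WD was tested as an interaction. The effect of apolipoprotein E loss grew between 6 and 22 weeks for 4 members, where 8.64% of genes passed: Hmox1 by 2.58 ± 0.32 (adjusted p = 4e-05), Ftl1 by 2.36 ± 0.30 (adjusted p = 4.7e-05), Slc11a1 by 1.95 ± 0.40 (adjusted p = 0.0027) and Fth1 by 0.80 ± 0.24 (adjusted p = 0.039). Fth1 lost that call without any 1 of 9 of the 12 libraries, all but WT replicate 1 and EKO replicate 3 at 6 weeks and EKO replicate 2 at 22 weeks (0.69 to 0.84, adjusted p = 0.055 to 0.12). It was lost too with the erythroid term and with only the compared groups fitted. The effect of human apoA-I in EKO became more negative for 3 members, where 5.12% of genes passed. Slc11a1 changed by -2.12 ± 0.40 (adjusted p = 0.0018), Hmox1 by -1.62 ± 0.32 (adjusted p = 0.0026) and Ftl1 by -1.53 ± 0.30 (adjusted p = 0.0029). Blvrb passed neither interaction, at -0.07 ± 0.24 (adjusted p = 0.91) and -0.15 ± 0.24 (adjusted p = 0.79).

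The order of the group means sums up the levels. For Hmox1 EKO on WD for 22 weeks (129.5 ± 30.58, SD) stood apart from EKO on chow for 22 weeks (41.75 ± 9.608). Below that, EKO on WD for 6 weeks (34.11 ± 5.463), EKO/hA-I on WD for 22 weeks (30.13 ± 6.14), EKO/hA-I on WD for 6 weeks (25.81 ± 8.858) and WT on WD for 6 weeks (25.78 ± 5.191) each overlapped with the group above. WT on WD for 6 weeks, at 21 to 31.3, did not overlap with the next group, EKO on chow for 6 weeks, at 14.36 to 20.22. The last 6 groups lay between 13.61 and 17.41. For Slc11a1 the top mean was 128.5 ± 27.92, and the next 4, all EKO or EKO/hA-I, lay between 24.36 and 28.37 and overlapped. Its lowest mean was WT on chow for 22 weeks, at 6.522 ± 0.9913. For Ftl1 the top mean was 4317 ± 523, followed by 1555 ± 256 in EKO on chow for 22 weeks, with overlap between neighbours from there to the lowest mean of 566 ± 111.1 in EKO/hA-I on chow for 22 weeks. For Fth1 the means ran from 3435 ± 534.5 to 1500 ± 137, with overlap from the second group down. For Blvrb the 3 highest means, 61.42 ± 12.22, 51.87 ± 13.28 and 48.26 ± 6.518, all belonged to EKO and overlapped.

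Cp, the ferroxidase, lay between 41.07 and 115.6 in the 12 WT libraries, between 84.74 and 197 in the 12 EKO libraries and between 122.7 and 202.7 in the 11 EKO/hA-I libraries. Every EKO/hA-I library was thus above every WT library, a pattern singled out after its values were seen and given as a description. The 4 comparisons of EKO with WT gave log2 differences of 0.63 to 0.93, of which the 2 at 22 weeks passed. On WD for 6 weeks the difference was 0.63 ± 0.24 (adjusted p = 0.11), and on chow for 6 weeks 0.68 ± 0.24 (adjusted p = 0.083).

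Ferroportin and the transferrin receptor spread widely within groups. Slc40a1 ran from 3.865 to 29.5 and Tfrc from 17.59 to 139.6 over the 35 libraries. In EKO on WD for 22 weeks the SD of Slc40a1 was 68.5% of its mean, and in WT on chow for 22 weeks the SD of Tfrc was 65.7% of its mean, against 23.6% for Hmox1 in EKO on WD. All neighbouring groups in the order of Tfrc overlapped. In Slc40a1 only the 2 lowest groups, EKO/hA-I on chow for 22 weeks and EKO on chow for 6 weeks, did not overlap, at 8.195 to 10.23 and 4.741 to 7.898. Fat around the vessel was said to be removed, yet brown fat markers differed widely between libraries, with Ucp1, the heat-producing uncoupling protein of brown fat, at 603 to 9750. In 9 of 12 groups Slc40a1 was highest in the library with the most brown fat signal. Within groups Slc40a1 changed by 0.91 ± 0.12 on the log2 scale per doubling of the markers (limma, adjusted p = 1.5e-06, a term that 38.1% of genes passed). For Tfrc the slope was 0.47 ± 0.19 (adjusted p = 0.052), with 4 of 12 groups highest in that library. The other 6 members had slopes between -0.16 and 0.10, and none passed.

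**Figure D4:**
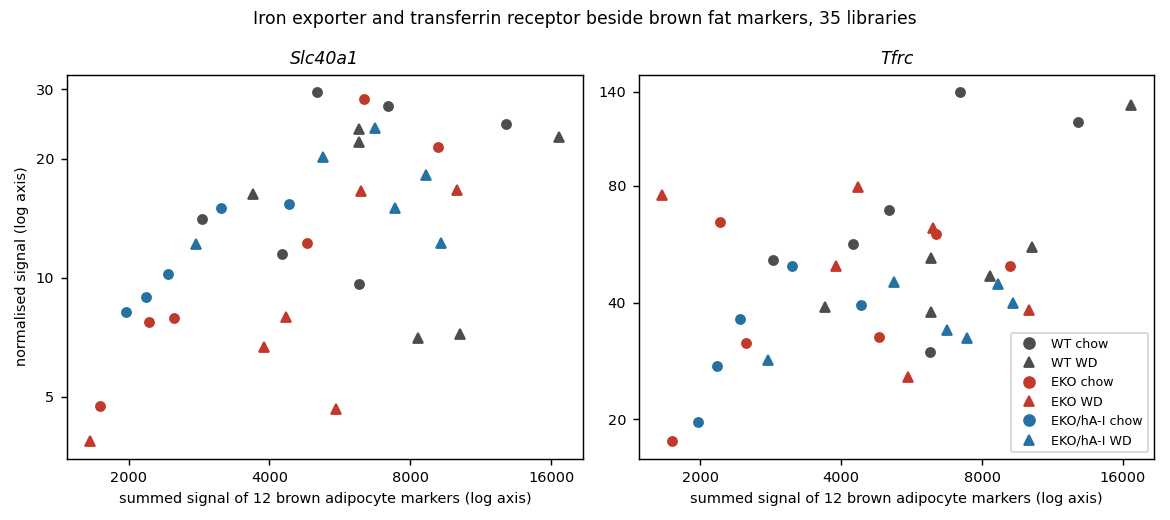
Slc40a1 (left) and Tfrc (right) signal (vertical log axes) against the summed signal of 12 brown adipocyte markers (horizontal log axes) in 35 libraries, coloured by genotype, with circles for chow and triangles for WD. Slc40a1 is highest in the library with most brown fat signal in 9 of 12 groups, Tfrc in 4.

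With the brown fat term, Slc40a1 was lower in EKO than in WT on WD for 22 weeks and passed. The difference was then -0.97 (adjusted p = 0.0052), against -1.23 (adjusted p = 0.056) without the term. In the comparison of EKO/hA-I with EKO on WD for 22 weeks the sign turned, from 0.80 (adjusted p = 0.23) to -0.41 (adjusted p = 0.46). No direction for ferroportin in EKO/hA-I can be read from these values.

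A wider list of 81 other iron and haem genes, of which 69 were tested, was set beside the members. The 8 members are not on it. In EKO against WT on WD for 22 weeks 17 rose and 1 fell, 26.1% of the list against 22.0% of all genes, and the list's median was 0.16 against -0.01 over all genes. By group, 7 of 16 genes of iron uptake and movement rose, 4 of 11 of haem breakdown and transport, 4 of 9 other targets of the antioxidant factor NRF2 and 2 of 6 iron and haem sensors. Apart from the members, none of 8 genes in iron storage and chaperoning passed in limma, and none of 8 in export and the hepcidin axis. In each group 2 were at an unadjusted p under 0.05. The ferritin chains Fth1 and Ftl1, which rose, are members and not counted there. Of 11 in haem synthesis 1 fell. The 5 with the smallest p that rose were Gsr, which regenerates glutathione (0.78 ± 0.09, adjusted p = 2.3e-07), Bach1, the haem-binding repressor of Hmox1 (0.85 ± 0.11, adjusted p = 1.2e-06), Txnrd1, a thioredoxin reductase (1.08 ± 0.14, adjusted p = 1.9e-06), Lcn2, which binds bacterial iron carriers (4.35 ± 0.64, adjusted p = 8.5e-06), and Steap3, a ferrireductase of endosomes (1.22 ± 0.19, adjusted p = 1.9e-05). Lcn2 went from 2.081 ± 1.433 to 58.03 ± 7.765 (SD). Ppox, of haem synthesis, fell by 0.38 ± 0.14 (adjusted p = 0.047).

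On chow for 22 weeks 10 genes of the list rose in EKO and 1 fell, 15.9% of the list against 15.3% of all genes, so the list's share was near the background. They included Steap3 (1.18 ± 0.19, adjusted p = 0.0002), Alas2, the erythroid enzyme that begins haem synthesis (2.38 ± 0.56, adjusted p = 0.0057), Trf, which is transferrin (1.66 ± 0.40, adjusted p = 0.0066), Hfe, a partner of transferrin receptors (0.85 ± 0.21, adjusted p = 0.0088), and Fech, which inserts iron to form haem (0.56 ± 0.14, adjusted p = 0.0093). Alas2 is also 1 of the 5 erythroid markers and gave most of their summed signal, so the 2 results are not independent. Alas2 holds an iron-responsive element in its 5′ UTR, tggttcgtcctCAGTGCagggcaacag, shown with the loop in capitals for comparison with the ferritin elements. Hpx, the haem carrier hemopexin, fell by 1.09 ± 0.35 (adjusted p = 0.035) at levels near the floor of the table (0.814 against 3.358). Leaving out EKO replicate 1 left 4 calls on this list, WT replicate 1 or EKO replicate 3 left 7 each, and WT replicate 2 gave 18.

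With human apoA-I on WD for 22 weeks 14 genes of the list fell and 6 rose, 29% of the list against 18.8% of all genes. The falls of smallest p were Gsr (-0.55 ± 0.09, adjusted p = 7.9e-05), Bach1 (-0.63 ± 0.11, adjusted p = 0.00015), Steap3 (-1.01 ± 0.19, adjusted p = 0.00037), Blvra, biliverdin reductase A (-0.60 ± 0.12, adjusted p = 0.001), and Prdx1, a peroxidase (-0.80 ± 0.18, adjusted p = 0.0031). Among the rises were Glrx5 (0.93 ± 0.26, adjusted p = 0.014), Cisd1 (0.97 ± 0.29, adjusted p = 0.022) and Iscu (0.63 ± 0.21, adjusted p = 0.033), all of mitochondrial iron-sulphur metabolism, and Cd163, the haemoglobin scavenger receptor (1.09 ± 0.35, adjusted p = 0.03). Brown adipocyte markers were higher in the same libraries, 4 of 12 passing, and with a brown fat term 12 of the list passed instead of 20. Leaving out replicate 1 of either group left 9, leaving out EKO/hA-I replicate 2 left 10, and leaving out EKO replicate 3 left 12. On chow for 22 weeks 22 fell and 3 rose (36.2% of the list against 28.6% of all genes). Glrx5 (-1.34 ± 0.26, adjusted p = 0.0011) and Nfs1 (-0.94 ± 0.20, adjusted p = 0.0022) led the falls. Neo1 (1.74 ± 0.30, adjusted p = 0.00048) and Steap2 (1.26 ± 0.26, adjusted p = 0.0016) led the rises. The EKO/hA-I libraries there carried less brown adipocyte signal (1974 to 2433 against 4819 to 9187, no overlap). A brown fat term cut the limma calls over all genes from 4046 to 1034. Term and genotype were nearly inseparable in this comparison, so the part of brown fat in these list calls cannot be read.

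In EKO at 22 weeks WD raised 14 genes of the list over chow and lowered 5 (27.5% of the list against 18.7% of all genes). Gsr (0.69 ± 0.09), Bach1 (0.80 ± 0.11), Prdx1 (0.89 ± 0.18), Txnrd1 (0.67 ± 0.14) and Blvra (0.56 ± 0.12) rose with adjusted p of 0.0018 or less. Among those that fell were Glrx5 (-1.26 ± 0.26), Cisd1 (-0.90 ± 0.29), Alad (-0.78 ± 0.26) and Abcb6 (-0.57 ± 0.20). Leaving out EKO replicate 1 on WD left a count of 12. From 6 to 22 weeks on WD 12 rose in EKO and none fell (17.4% of the list against 13.4% of all genes), led by Gsr (0.65 ± 0.09, adjusted p = 8.4e-06), Blvra (0.76 ± 0.12, adjusted p = 5.8e-05), Bach1 (0.62 ± 0.11, adjusted p = 0.00017), Prdx1 (0.88 ± 0.18, adjusted p = 0.0013) and Slc25a37, the iron carrier of the mitochondrion (0.60 ± 0.15, adjusted p = 0.0059). Leaving out the 22-week replicate 3 left a count of 6, and the 6-week replicate 3 a count of 7. Blvra read 20.17 ± 1.971 at 6 weeks and 34.86 ± 1.328 at 22 weeks (SD, n = 3).

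Genes whose group means followed each member most closely were sought over the 12 group means, among 10825 genes with a mean log2 value of at least 3. The points share the same libraries, so Pearson's r is a description. In Hmox1, Slc11a1 and Ftl1 the mean of EKO on WD for 22 weeks stood far above the next (128.5 against 28.37 for Slc11a1). For these genes r leans heavily on that 1 point. Nearest to Hmox1 were Ctsd (r = 0.981), a lysosomal protease, Adam8 (0.98) and Psap (0.979), the precursor of the saposins. Nearest to Slc11a1 were Pltp, Lyz2 and C1qc, each at 0.995, and Lyz2 and C1qc are macrophage markers of the list used above. Nearest to Fth1 were Ftl1 (0.981), Smox (0.973) and Fabp5 (0.97), and nearest to Ftl1 were Cdk18 (0.988), Mmp19 (0.982) and Gngt2 (0.982). Blvrb was closest to Pdxk (0.924), 2700094K13Rik (0.92) and Entpd4 (0.904), and Cp to Nfkb1 (0.98), Man1a (0.973) and Birc3 (0.962). Nearest to Slc40a1 were Ptpru (0.921), Cntrob (0.898) and Fam69b (0.887), and nearest to Tfrc were Csrnp2 (0.884), Drg1 (0.868) and Ormdl1 (0.861).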

How the data were processed

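RNA of 35 mouse aorta libraries was measured. The authors deposited 1 table of normalised signal per gene and library, with columns summing to 907492 to 1137737. The submitters' processing notes name Bowtie 0.12.2, Bowtie2, RSEM, mm8 and mm9 without saying what each was used for, and the counting and the size factor are not given in the sources used here. Of low values, 71.6 to 82.1% in a library lay within 0.02 of a whole number of reads, so counts were not recovered. Tests used limma 3.58.1 in R 4.3.3 (trend, robust, two-sided) on log2(value + 1) over the 14157 genes that reached 1 in 3 or more libraries (17 did not), and were tested on simulated data. There were 21 comparisons of 2 groups and 3 interactions. The members and gene lists were chosen with earlier results of these data known. Beyond the members, listed genes were named by smallest p (up to 5 in each direction in 5 comparisons, otherwise 2), and some of these are not reported here. Alternatives were pseudocounts of 0.1 and 5, no filter, a replicate block, median-ratio rescaling, terms for brown fat, brown fat with skeletal muscle, erythroid and Y-linked markers, the compared groups alone, and each library left out. Residuals of same-numbered libraries correlated above 0.1 in every pair in 22 against 6 weeks for EKO on WD (0.122 to 0.439), WT on WD (0.132 to 0.339) and EKO/hA-I on chow (0.28 to 0.349, 2 pairs).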

Additional observations from a re-analysis of the deposited data

Results flagged for a closer look

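The effect of a genotype differed between durations or diets for 4 members, each by an interaction term in limma. Between 6 and 22 weeks on WD the effect of apolipoprotein E loss grew by 2.58 (log2) for Hmox1, 2.36 for Ftl1, 1.95 for Slc11a1 and 0.80 for Fth1. The call of Fth1 was lost under 11 of 22 alternatives, and those of the other genes under none. Between chow and WD at 22 weeks the effect of apolipoprotein E loss grew by 1.48 for Hmox1 and 1.56 for Ftl1. Between 6 and 22 weeks on WD the effect of human apoA-I changed by -1.62 for Hmox1, -2.12 for Slc11a1 and -1.53 for Ftl1. Macrophage marker sums moved with these values, and their part was not tested.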

How the results depend on the processing

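Of 57 member differences that passed, 33 passed under every alternative run, 24 were lost under at least 1 and 0 reversed. Pseudocounts, no filter, rescaling, the replicate block and the Y-linked term lost 0, the brown fat term 9, brown fat with skeletal muscle 11, the erythroid term 7, the compared groups alone 15 and leaving out a library 13. Fitted with only the compared groups, the count of members was 0 for EKO against WT on WD for 6 weeks (2 in the full fit), on chow for 22 weeks (6) and on chow for 6 weeks (1). Over all genes tested the counts there were 9, 11 and 9, against 770, 2165 and 704 in the full fit. Brown fat alone or with skeletal muscle gave 1 (EKO against WT, WD 6 weeks), 0 (chow 6 weeks), 0 (WD against chow, EKO/hA-I 22 weeks), 1 (WD against chow, WT 6 weeks), 1 (22 against 6 weeks, WT on WD) and 2 (WT on chow). Of all genes, brown fat alone left 276 in EKO against WT on WD for 6 weeks (770 in the full fit). It left 87 on chow for 6 weeks (704) and 2 in WD against chow for EKO/hA-I at 22 weeks (5409). Brown fat alone gave 1 (EKO/hA-I against EKO, WD 6 weeks), 1 (WD against chow, WT 22 weeks) and 4 (interaction with diet), and with skeletal muscle 2 (EKO/hA-I against WT). The erythroid term gave 0 (EKO against WT, chow 6 weeks) and 1 (EKO/hA-I against WT). On the list of 69 genes the brown fat term gave 19 in EKO against WT on chow for 22 weeks (11) and 12 in the comparison of EKO/hA-I and EKO on WD (20).

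The replicate block raised the count of members in EKO against WT on chow for 6 weeks from 1 to 2 and on WD for 22 weeks from 6 to 7 (Slc40a1, adjusted p = 0.037), and in the interaction of apolipoprotein E loss with duration from 4 to 5. It changed no other count of members, those of the comparisons whose numbers pair the libraries included.

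Leaving out 1 library (a lone remaining sample is assumed to vary like the other groups) gave 1 to 2 members for EKO against WT on WD for 6 weeks, 0 to 3 on chow for 6 weeks, 2 to 4 for EKO/hA-I against WT, 0 to 1 for WD against chow in WT at 22 weeks, 3 to 5 for 22 against 6 weeks in EKO on WD and 2 to 4 for the interaction with diet. On the list it gave 4 to 18, 9 to 20, 12 to 18 and 6 to 12 for EKO against WT on chow, EKO/hA-I against EKO, WD against chow in EKO and 22 against 6 weeks.

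Differences that had not passed and changed sign were Tfrc in EKO against WT on chow for 22 weeks (-0.81 to 0.15 without a library), Cp between EKO/hA-I and EKO on WD for 22 weeks (-0.293 to 0.067), Slc40a1 there (-0.41 with brown fat, -0.49 with skeletal muscle too), Blvrb in 22 against 6 weeks in EKO on WD (-0.12 to 0.20) and Slc40a1 there (0.005 at pseudocount 5, 0.62 and 0.61 with tissue terms, -0.47 to 0.47 without a library).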
